A study of Gallus gallus with 3 samples.

Results

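Cytosolic ribosomal protein genes were described in the breast muscle of 42-day-old male broilers of the Arbor Acres breed, chickens (Gallus gallus) raised for meat, that had been kept at 50 ± 3 ppm of atmospheric ammonia. Genes were taken by their symbols in the NCBI chicken RefSeq gene table, as those that start with RPL and a digit or P, or with RPS and a digit, leaving out the RPS6K kinases. Of 10663 named genes, 61 met this rule, 37 with an RPL symbol (large subunit) and 24 with an RPS symbol (small subunit). All 3 libraries belong to 1 group and all carry the ammonia exposure. No library of another exposure was analysed here, so nothing below speaks to what ammonia does. Whether the libraries came from separate birds is not stated in the labels. Each SD and p-value thus covers library-to-library spread, which may be technical.

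The cytosolic ribosome is built from a small subunit, which decodes the mRNA, and a large subunit, which joins amino acids and hands the new chain to its exit tunnel. Each subunit carries its own set of proteins, nearly all present once per ribosome, while the acidic stalk proteins RPLP1 and RPLP2 are present in more than 1 copy. In vertebrates the mRNAs of these proteins start with a stretch of pyrimidines, the TOP motif, through which growth signalling by mTOR sets their translation. In mammals a few subunit proteins have a duplicate form used in some tissues, among them RPL3L, the form of RPL3 found in heart and skeletal muscle.

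Levels are given as FPKM, which scales fragments by transcript length and library size. This unit was inferred from the deposited tables. Matched transcripts were summed for each gene. All 61 genes reached at least 1 FPKM in each library, and none was listed at 0. The gene table holds 72 genes that meet the rule. The other 11, among them RPL11, RPL23, RPS27 and RPS27A, were not analysed here. Summed values of the whole tables were 569361, 586193 and 573648 FPKM in libraries 1 to 3, and read depth is unknown. Muscle fibre markers were high in every library, with means of 15976 FPKM for the myosin light chain MYL1, 15641 FPKM for TNNT3 and 14413 FPKM for TNNC2, the fast troponins T and C.

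Together the ribosomal protein genes held 10.7%, 10.3% and 8.12% of the summed value in libraries 1, 2 and 3, a mean of 9.71 ± 1.39% (SD, n = 3). Library 3 was the lowest. The median gene of the set, used below as the common level, stood at 877, 925 and 697 FPKM. That exceeded 99.0%, 99.0% and 98.7% of the 6595 named genes kept, which had at least 1 FPKM in at least 2 libraries. Quartiles of the set were 599.8 and 1204 FPKM in library 1, 599.4 and 1138 FPKM in library 2, and 518 and 968 FPKM in library 3. The order of the genes was alike between libraries, with Spearman correlations across the 61 genes of 0.930, 0.931 and 0.976 for libraries 1 and 2, 1 and 3, and 2 and 3. Genes within a library share its depth and scaling and are not independent replicates.

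**Figure D1:**
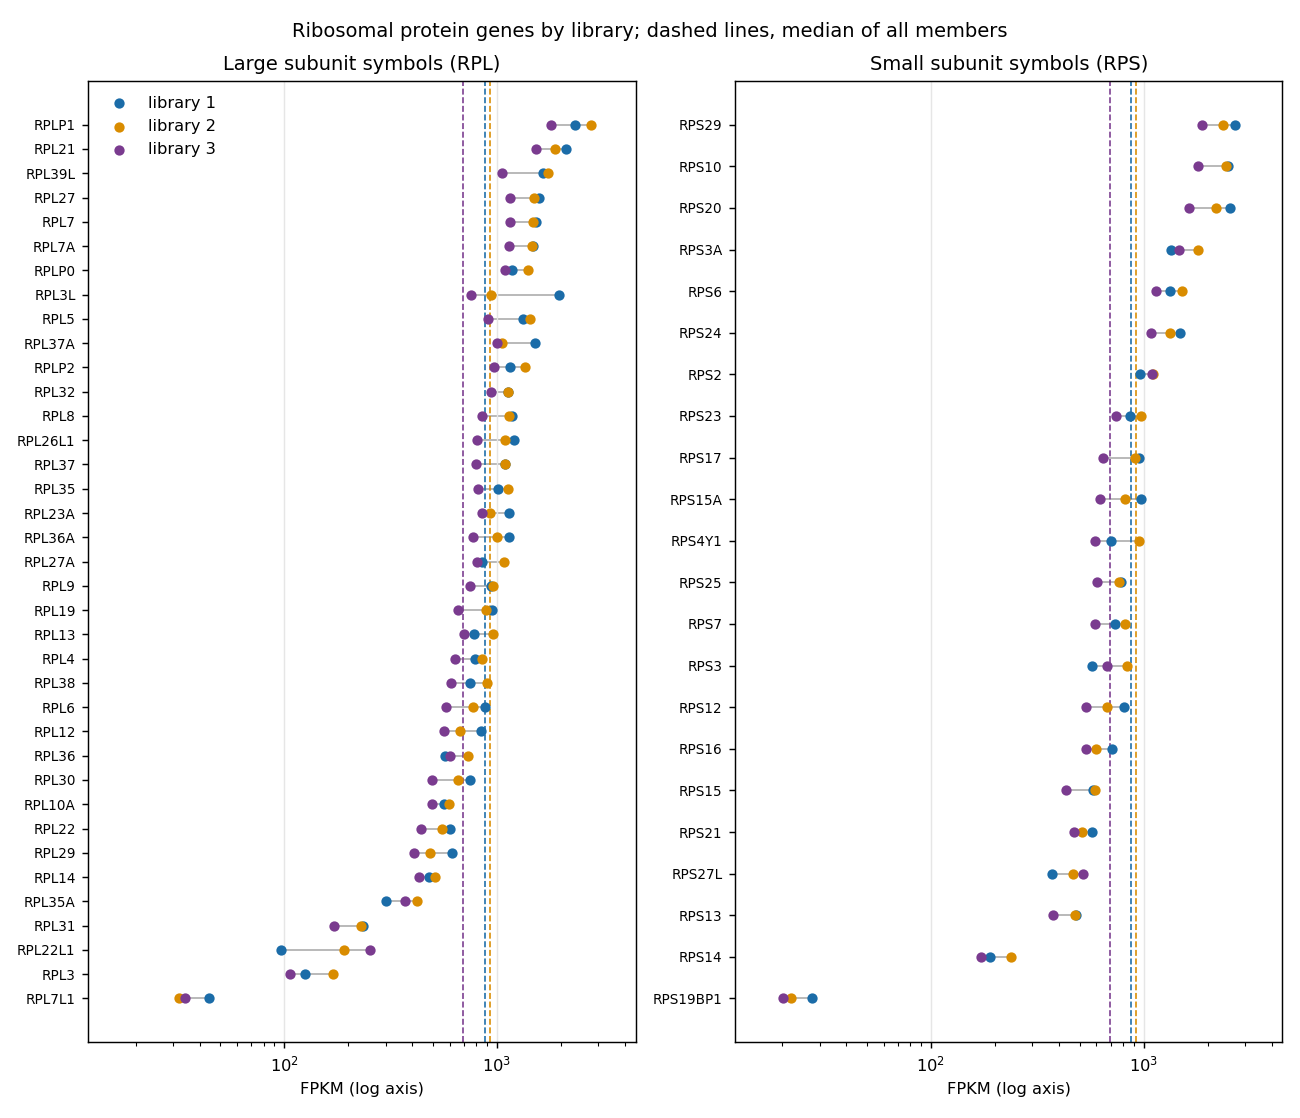
FPKM (log axis) of the 37 RPL genes and 22 of the RPS genes in libraries 1 (blue), 2 (orange) and 3 (purple), sorted by mean. Dashed lines mark the median of all 61 genes in each library (877, 925 and 697 FPKM). Most genes lie close to these lines, and a few at the foot of each panel lie far below.

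Most genes lay close to the common level: 46 of 61 were within 2-fold of it in all 3 libraries, on the scale log2(FPKM + 1). Another 11 were beyond 2-fold in all 3 libraries, 5 above and 6 below. The remaining 4 (RPS3A, RPL3L, RPS27L and RPL35A) passed 2-fold in some libraries only. These counts rest on a fixed size of difference and carry no test.

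The 5 genes above the common level were RPS29, RPLP1, RPS10, RPS20 and RPL21. RPS29, a zinc-binding protein of the small subunit, had the highest mean, with 2684, 2357 and 1887 FPKM in libraries 1 to 3 (mean 2310 ± 400.3, SD, n = 3). RPLP1, of the stalk that recruits elongation factors, was listed at 2344, 2766 and 1798 FPKM. RPS10 and RPS20 are small subunit proteins that carry ubiquitin when ribosomes collide, as known from mammalian cells. RPS10 was listed at 2493, 2439 and 1808 FPKM, and RPS20 at 2547, 2188 and 1636 FPKM. RPL21, a large subunit protein, was listed at 2118, 1871 and 1523 FPKM, between 1.02 and 1.27 log2 units above the common level. It holds 2 matched transcripts, and the higher one alone lay a mean of 0.90 above. RPS3A, next in mean level, was listed at 1345, 1804 and 1462 FPKM and passed 2-fold only in library 3. Apart from the higher value of library 2 for RPLP1, these 5 genes were highest in library 1 (51.1% of all genes kept). All 5 were lowest in library 3, as were 53 of the 61 genes (39.4% of all genes kept). After the median-of-ratios scaling described below, RPS10 too was highest in library 2, at 2488 against 2291 in library 1.

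The 6 genes far below the common level included 2 whose products are not ribosome subunits. RPS19BP1, a protein that binds RPS19, was the lowest of all at 27.4, 21.9 and 20.1 FPKM. RPL7L1, a relative of RPL7 that acts in ribosome assembly, was listed at 44.3, 31.9 and 34.3 FPKM. The other four were RPL3, RPL22L1, RPS14 and RPL31. RPS14, a protein of the small subunit whose loss in humans underlies the anaemia of the 5q- syndrome, was listed at 191, 239 and 172 FPKM, a mean of 2.05 log2 units below the common level. RPL31, beside the exit tunnel of the large subunit, was listed at 236, 229.8 and 171 FPKM, a mean of 1.97 below. For both, the 3 libraries differed from each other by less than the gap to the common level. RPL35A, of the large subunit, was listed at 300.01, 421 and 372 FPKM. It passed 2-fold below in libraries 1 and 2 and stood 0.90 below in library 3. RPL3 and RPL22L1 are described with their related forms.

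The large subunit genes were compared with the small subunit genes within each library. Genes were assigned by symbol, so RPL7L1 and RPS19BP1 were included although their products are not subunits. Medians were 953, 958 and 755 FPKM for the 37 large subunit genes and 798, 826 and 637 FPKM for the 24 small subunit genes in libraries 1 to 3. The large subunit median was the higher in 3 of 3 libraries, by 0.26, 0.21 and 0.24 log2 units (mean 0.24 ± 0.02, SD, n = 3). The exact two-sided sign-flip permutation p was 0.25, the smallest that 3 libraries allow. Single genes overlapped widely: in library 1 they ran from 44.3 to 2344 FPKM for RPL symbols and from 27.4 to 2684 FPKM for RPS symbols. The lower ends are RPL7L1 and RPS19BP1. The lowest genes of true subunit proteins there were RPL22L1 at 96.2 FPKM and RPS14 at 191 FPKM. Taken as means over genes in place of medians, the difference shrank to 0.06, 0.03 and 0.003 log2 units. These means include RPL7L1 and RPS19BP1, whose products are not ribosome subunits and which lie far below the other genes. Without them the direction of the difference in means turns, and the small subunit mean is the higher in each library. The size and direction of the difference therefore rest on how the genes are averaged and which are included. In library 3 the median deviation from the other two libraries was -0.39 for large and -0.35 for small subunit genes.

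**Figure D2:**
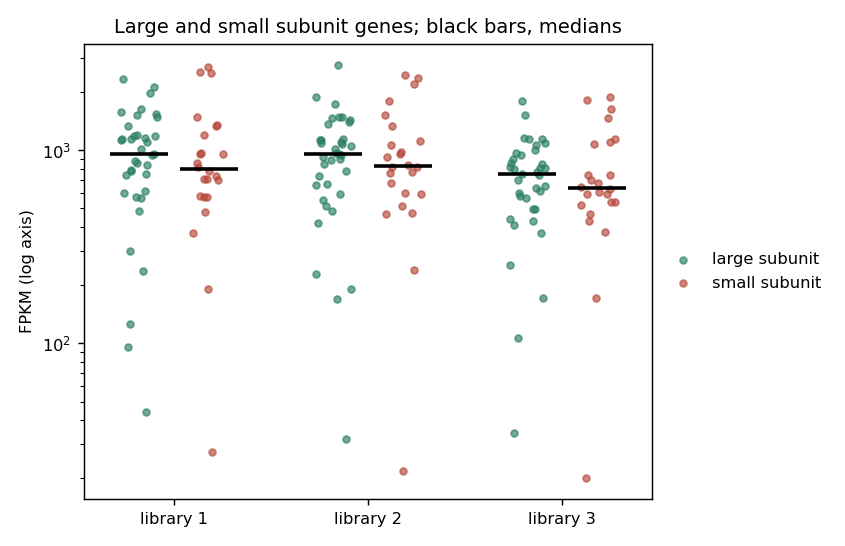
FPKM (log axis) of genes with large (green) and small (red) subunit symbols in each library, 1 point per gene, with black bars at the medians. RPL7L1 and RPS19BP1, whose products are not subunits, are included. The bar of the large subunit lies above that of the small in each library (953 against 798, 958 against 826 and 755 against 637 FPKM), while the points overlap over nearly their whole range.

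Within the stalk, RPLP0, the protein that anchors RPLP1 and RPLP2 to the large subunit, was listed at 1183, 1401 and 1091 FPKM. RPLP2 was listed at 1157, 1361 and 968 FPKM. As deposited, all 3 stalk genes were highest in library 2, as were 27 of the 61 genes (26.3% of all genes kept). All 3 were lowest in library 3, as were 53 of the 61 (39.4% of all genes kept). After the median-of-ratios scaling described below, RPLP0 was lowest in library 1, at 1087 against 1140 in library 3. RPLP1 exceeded RPLP0 by 1.98-, 1.97- and 1.65-fold, a mean log2 ratio of 0.90 ± 0.15 (SD, n = 3). RPLP2 lay below RPLP1 at 0.494, 0.492 and 0.538 of its level, a mean log2 ratio of -0.98 ± 0.07. RPLP2 and RPLP0 thus stood near each other and RPLP1 above both. Each ratio lay on the same side in 3 of 3 libraries, with an exact sign-flip p of 0.25. FPKM divides by transcript length, which is short for RPLP1 and RPLP2. How length was corrected is not given in the sources used here.

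RPL3L far exceeded RPL3. RPL3 contacts the peptidyl transferase centre of the large subunit. It was listed at 125, 169.7 and 106 FPKM, a mean of 2.65 log2 units below the common level. RPL3L was listed at 1964, 941 and 755 FPKM, which is 1.16, 0.03 and 0.11 log2 units above the common level. RPL3L exceeded RPL3 by 15.7-, 5.55- and 7.12-fold in libraries 1 to 3, a mean log2 ratio of 3.09 ± 0.78 (SD, n = 3; exact sign-flip p = 0.25). RPL3L made up 94.0%, 84.7% and 87.7% of the sum of both genes. That sum stood at 2090, 1111 and 861 FPKM, or 1.25, 0.26 and 0.30 log2 units above the common level. Near-identical stretches of the 2 genes could share reads, and how such reads were divided is not given in the sources used here.

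In the values as deposited, RPL22L1 and RPL22 ran in opposite orders across the libraries. RPL22, an RNA-binding protein of the large subunit, was listed at 599.8, 551 and 439.8 FPKM, and its duplicate form RPL22L1 at 96.2, 192 and 253 FPKM. RPL22 was lowest and RPL22L1 highest in library 3. RPL22L1 stood at 0.160, 0.348 and 0.576 of the level of RPL22, a mean log2 ratio of -1.65 ± 0.93 (SD, n = 3; exact sign-flip p = 0.25). It held 13.8%, 25.8% and 36.5% of the sum of both genes. The sum was listed at 696, 743 and 693 FPKM, while the common level was lowest in library 3. Against the common level, the sum lay at -0.33, -0.31 and -0.008 log2 units. RPL22 alone lay at -0.55, -0.74 and -0.66 log2 units.

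Other duplicate forms behaved in different ways. RPL7L1 stood far below RPL7, which was listed at 1534, 1480 and 1158 FPKM, at a mean log2 ratio of -5.24 ± 0.26 (exact sign-flip p = 0.25, n = 3). RPS27L, the duplicate form of RPS27, was listed at 372, 467 and 518 FPKM. As deposited, RPS27L was, with RPL22L1, 1 of only 2 genes of the set that were highest in library 3, against 22.6% of all genes kept. After the median-of-ratios scaling described below, RPS2 was also highest in library 3. Of 12 planned pairs, 5 had both genes measured. RPL39L and RPL26L1 carry the synonyms RPL39 and RPL26 in the gene table, so their symbols do not show which form they are in the chicken. RPL39L was listed at 1640, 1736 and 1063 FPKM and RPL26L1 at 1202, 1098 and 804 FPKM. RPS4Y1, which carries the synonym RPS4X, was listed at 703, 957 and 590.5 FPKM.

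**Figure D3:**
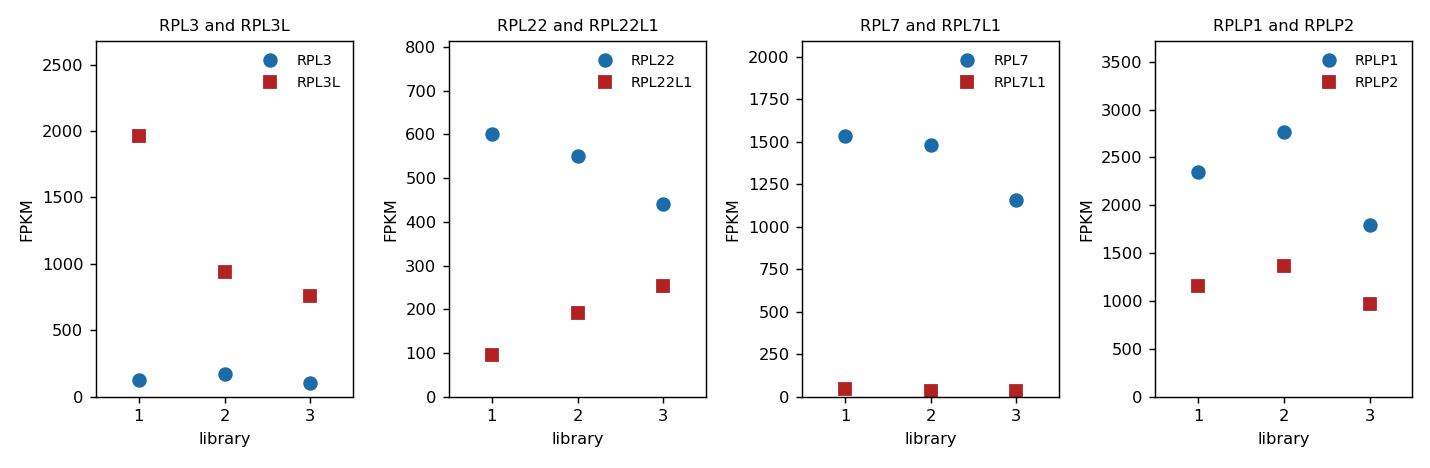
FPKM (linear axes from 0) of 4 pairs of related genes in libraries 1 to 3, with the first gene of each pair as blue circles and the second as red squares. RPL3L lies above RPL3 in each library, RPL22L1 nears RPL22 most closely in library 3 (253 against 439.8 FPKM), RPL7L1 lies near 0, and RPLP2 lies below RPLP1.

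Nearly the whole set was lower in library 3 than in the other libraries. Of 61 genes, 53 were lowest in library 3, against 39.4% of the 6595 genes kept, 7 in library 1 (against 25.8%) and 1 in library 2 (against 34.8%). The share was 33 of 37 large subunit genes and 20 of 24 small subunit genes. The median gene of the set lay 0.38 log2 units below the mean of libraries 1 and 2, where the median of all genes kept lay at -0.09. Against library 2 alone, 58 of 61 genes were lower in library 3 (52.4% of all genes kept), by a median of -0.37. Against library 1 alone, 54 of 61 were lower (64.4% of all genes kept), by a median of -0.38. Between libraries 1 and 2 the order depended on the scaling. As deposited, 32 of 61 genes were lower in library 2 (60.9% of all genes kept), with a median difference of -0.01. Scaled by median-of-ratios, 18 of 61 were lower in library 2 (50% of all genes kept), with a median difference of 0.14. After this scaling, which removes the shift of the median gene, 47 of 61 were lowest in library 3, against 30.7% of all genes kept. The scaled count of genes lowest in library 1 was 13, against 37.1%. Nothing in the labels distinguishes 1 library from another.

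The 8 genes that were not lowest in library 3 were RPS3A, RPS2, RPS3, RPL36, RPS27L, RPL35A and RPL22L1, lowest in library 1, and RPL7L1, lowest in library 2. RPS3, at the entry of the mRNA channel, was listed at 570.3, 834 and 672 FPKM. RPS2, which lies beside it in the small subunit, was listed at 958, 1112 and 1101 FPKM. RPL36 was listed at 571, 733 and 602 FPKM. As deposited, all but RPS27L, RPL22L1 and RPL7L1 were highest in library 2. After median-of-ratios scaling, RPS2 was highest in library 3, at 1150 against 1134 in library 2. In the order of protein-coding genes of the gene table, RPL3L and RPS2 are separated by 1 gene. RPL3L was highest in library 1, where RPS2 was lowest.

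**Figure D4:**
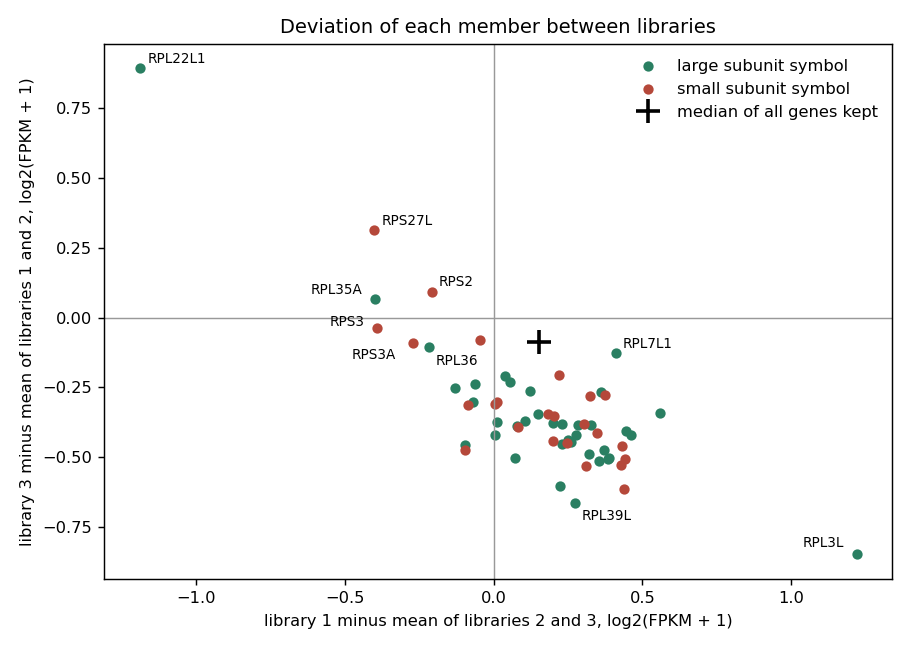
Each point is 1 of the 61 genes, with library 1 minus the mean of libraries 2 and 3 on the x axis and library 3 minus the mean of libraries 1 and 2 on the y axis, both in log2(FPKM + 1). Both axes use all 3 libraries, so a fall from upper left to lower right is built into the plot. Most points lie below the cross that marks the median of all genes kept (-0.09 on the y axis), and RPL22L1 and RPL3L lie far from the others.

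Single genes of the set spread between libraries about as much as the median gene kept. The SD of log2 level had a median of 0.25 in the set and 0.26 over all genes kept, and the median gene's highest library exceeded its lowest 1.39-fold. RPL3L (SD 0.72) and RPL22L1 (SD 0.71) spread most, followed by RPL39L (0.39). RPS2 was among the genes that spread least (SD 0.12). The limma variance test called 0 of 61 genes of the set and 0% of all 6595 genes at a Benjamini-Hochberg adjusted p under 0.05. The adjusted p was 0.90 for RPL22L1 and 0.91 for RPL3L. An unadjusted limma p below 0.05 was reached by 0 of the 61 genes and by 372 of all genes (5.64%). Leaving out library 2 gave 26 calls among 6267 genes and leaving out library 3 gave 30 among 6358, with 0 of the set in both. An unadjusted limma p below 0.05 was reached in these runs by 2 and 1 genes of the set. Among all genes it was reached by 441 and 410. With calls this rare, 0 of 61 does not set these genes apart from the others. The test was also run on simulated data with 200 genes shifted in 1 library. With unequal spread between genes it called 0 of 200 after adjustment, even at shifts of 4 log2 units. Unadjusted, 23.5% passed at shifts of 1 log2 unit and 92.5% at 2. With equal spread it called 2, 199 and 200 after adjustment, at shifts of 1, 2 and 4 log2 units. The adjusted count of 0 therefore cannot show that the genes are stable.

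Of the 61 genes, 55 had 1 matched transcript and 6 had several. The 3 transcripts of RPS24, a small subunit protein, kept their shares of the gene, with 29.9%, 29.1% and 29.8% for the first in libraries 1 to 3, and 59.3%, 58.5% and 59.6% for the second. In RPL12, a large subunit protein at the base of the stalk, the transcripts differed. Its coding transcript was listed at 636, 599.9 and 564 FPKM, while a non-coding transcript assigned to the same gene was listed at 203, 70.1 and 1.83 FPKM. The non-coding transcript thus carries most of the difference in RPL12 between libraries 1 and 3.

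Other genes tied to the ribosome were set beside the set. RACK1, a small subunit component outside the rule, was listed at 1143, 1270 and 814 FPKM, and RPSAP58, which carries the synonym RPSA, at 1220, 1107 and 879 FPKM. Both lay at levels like those of the set and were lowest in library 3. Of 22 listed TOP mRNAs outside the rule, RACK1 and RPSAP58 among them, 14 were measured and 12 were lowest in library 3 (39.4% of all genes kept), with a median deviation there of -0.53 against -0.09 for all genes kept. In library 1, 12 of the 14 were highest (51.1% of all genes kept). TPT1, which has a TOP motif and was the highest of them, was listed at 6570, 4358 and 4763 FPKM. The elongation factor EEF2 was picked out once the values were known, and stood at 1186, 520 and 479 FPKM.

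Among ribosome assembly factors, 30 of 50 listed were measured and 20 of these were lowest in library 3 (39.4% of all genes kept), with a median deviation of -0.27 against -0.09 for all genes kept. NPM1, a nucleolar chaperone, was listed at 391, 309.6 and 211 FPKM. NCL (nucleolin) was listed at 98.4, 73.7 and 59.2 FPKM, and PNO1, of small subunit assembly, at 76.5, 55.3 and 44.0 FPKM. All 3 were lowest in library 3 and highest in library 1, as were 17 of the 30 in library 1 (51.1% of all genes kept). Of 9 measured genes of growth signalling to TOP mRNAs, 3 were lowest in library 3 (39.4% of all genes kept), 6 were lowest in library 2 (34.8%) and 7 were highest in library 1 (51.1%). EIF4EBP1, a repressor of cap-dependent translation that mTOR inactivates, was listed at 570.1, 532 and 539 FPKM. DEPTOR, an inhibitor of mTOR, was listed at 94.8, 43.0 and 69.0 FPKM and MLST8, an mTOR partner, at 58.5, 44.8 and 39.1 FPKM. Of the 55 measured genes of the mitochondrial ribosome, 17 were lowest in library 3 (39.4% of all genes kept) and 12 highest (22.6%). Their median deviation there was 0.004, against -0.09 for all genes kept. In the same list 30 of 55 were lowest in library 1 (25.8% of all genes kept) and 32 highest in library 2 (26.3%). The differences between these lists and the set were not tested.

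Macrophage markers, and 3 of 4 adipocyte markers, were also lowest in library 3, against 39.4% of all genes kept. The 6 measured macrophage markers of 9 were all lowest there, and their summed level was 392, 339 and 165 FPKM in libraries 1 to 3. CD74 was listed at 325, 269.7 and 136 FPKM, LY86 at 27.3, 22.9 and 12.1 FPKM and CTSS at 21.3, 26.9 and 9.16 FPKM. The 4 adipocyte markers summed to 183, 126 and 75.5 FPKM. FABP4 had the highest mean of them, at 113, 71.3 and 15.5 FPKM, while ADIPOQ was highest in library 3, at 38.4, 36.1 and 46.9 FPKM. Fibroblast markers (6 of 7) summed to 400 FPKM in library 1, 875 in library 2 and 651 in library 3. Endothelial markers (4 of 5) summed to 81.1, 48.3 and 52.9 FPKM, and neither sum was lowest in library 3. By gene, 4 fibroblast markers were lowest in library 1, 1 in library 2 and 1 in library 3. Of the endothelial markers, 3 were lowest in library 2 and 1 in library 3. Muscle fibre markers (4 of 6) summed to 40486, 51195 and 50580 FPKM, a sum lowest in library 1. Of these, MYL1 and TNNT3 were lowest in library 1, and TNNC2 and MYBPC2 in library 3. Of all genes kept, 25.8%, 34.8% and 39.4% were lowest in libraries 1, 2 and 3. Satellite and dividing cell markers (6 of 6) ran in different orders, with MYF5 at 16.4, 8.10 and 4.04 FPKM and CDK1 at 0.499, 7.03 and 6.48 FPKM. Of the red blood cell markers, HBBA was listed at 24.3, 54.1 and 98.7 FPKM and HBAD and HBE at less than 0.001 FPKM in every library. In bulk tissue, fewer cells of a type and less RNA per cell cannot be told apart. The part of other cell types in the lower ribosomal protein values of library 3 was not tested.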

How the data were processed

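The deposited tables, 1 per library, list 36977 RefSeq transcripts with 1 value each. The unit is not named in the tables. The deposited values were taken as FPKM, since they are not whole numbers, have unequal totals, and hold 4247 to 4370 values per library between 0 and 0.001. TPM of a subset of transcripts would differ only by a constant within each library. CASAVA 1.7, Bowtie2 and HTSeq are named in the submitters' processing notes without their roles. Genome build, annotation and quantifying program: not given in the sources used here. Per the labels' protocols, RNA was isolated with TRIzol and mRNA with oligo(dT) beads. Whole reads could not be recovered: of 3466 low transcripts, no more than 10 had the same ratio of library 1 to library 2 when its natural log was rounded to 3 decimals. Depth is therefore unknown and no counting interval is given.

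Accessions were matched without version to the NCBI chicken gene table (assembly GRCg7b), which served only for names and gene order. Of 36977 transcripts 13188 (35.7%) matched. Values were summed per gene and taken as log2(FPKM + 1), which understates differences of low genes. The 6595 genes kept had at least 1 FPKM in at least 2 libraries. The spread of each gene was tested with limma 3.58.1 (R 4.3.3), as its variance over 3 libraries (residual df 2) against a robust trend with mean level, using the prior degrees of freedom of the bulk of genes, upper F tail and Benjamini-Hochberg adjustment, and tested on simulated data. Ratios within libraries and subunit differences were tested by exact two-sided sign-flip permutation. Named genes were the 6 highest and 6 lowest, those beyond 2-fold of the common level in every library, stalk proteins, measured pairs, the 4 largest and 2 smallest SDs, those not lowest in the library where most were, and the highest of each other list; for some marker lists only sums are given, and a few genes are not reported here. The genes, lists and rules were chosen with earlier results of these data known. Sequences are not shown here. Python 3.11.15, pandas 2.3.3 and numpy 2.4.6 were used.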

Additional observations from a re-analysis of the deposited data

How the results depend on the processing

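The lower level of the set in library 3 kept its direction under every alternative run that held library 3. The higher level of the large subunit kept its direction in every run that compared medians, but not by means without the genes that are not subunits. Relative to all genes kept, the set lay at -0.30 in library 3, and at -0.28 to -0.35 or, without library 2, at -0.23. In library 1 the set lay at 0.07 relative to all genes, at 0.23 without library 2 and at -0.12 without library 3. In library 2 it lay at 0.22, at 0.35 without library 1 and at 0.12 without library 3. The difference between subunits was 0.14 with curated transcripts only, 0.17 without duplicate forms and genes that are not subunits, 0.18 without stalk proteins and, with the mean over genes (chosen after seeing the data), 0.03. That mean includes RPL7L1 and RPS19BP1. Without them the direction turns, and the small subunit mean is the higher in each library. The share of the summed value was 7.56% with curated transcripts only, where fewer genes were matched.

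Counts moved as follows. With curated transcripts only, 3 genes lay above the common level (RPS29, RPLP1 and RPS10). RPL21 and RPS20 had no curated transcript and dropped out of that run. Beyond 3-fold, 5 genes were off the common level and 0 of them above. Without duplicate forms and genes that are not subunits, 7 were off the common level, 3 of them below, and 0 genes were lowest in library 2. The same counts of 7, 3 and 0 were found when RPL39L and RPL26L1 were retained, an alternative chosen after seeing the data. Median-of-ratios scaling put 13 genes lowest in library 1. With 1 library left out, 7 to 29 genes were lowest in library 1 and 3 to 32 in library 2, since 1 of 2 libraries must then be the lowest, and the spread test called 0 to 30 genes. Results on library 3 have no value without it. The cause of the other shifts was not tested. No paired analysis was possible because all samples belong to 1 group.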
